A study of Mus musculus with 2 samples.

Results

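Expression of 32 genes of DNA repair and of the DNA damage checkpoint was compared between control mouse embryonic stem cells and cells in which a hairpin targets LincU, a long noncoding RNA. The genes were taken by name from the gene name column of the array, control spots left out, which gave 80 of 56605 probes and 32 of 37074 named genes. By role they comprised 10 genes of homologous recombination, 8 of the Fanconi pathway, 3 of mismatch repair, 3 of end joining, 4 of the checkpoint and 4 of single-strand break and excision repair. The list names genes by their role, and no measured value enters the rule.

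Both groups were the embryonic stem cell line 46C, grown in 15% serum with LIF at 1000 U/ml on feeder cells that were taken away before RNA was prepared. The control group, shCtrl, carried a control short hairpin by its genotype label, although its title calls it WT, and the other group, shLincU, carried the hairpin against LincU. Each group was 1 array, hybridised with Cy3-labelled RNA in 1 colour, so no difference has a replicate check and no test between groups was possible. The number of arrays limits the precision. LincU itself was not analysed here, so the depth of the knockdown is not known here, and directions depend on which label each array carries. The labels do not give the hairpin sequences, the number of clones or the time after delivery.

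A cell repairs a break across both DNA strands in the main by homologous recombination, which copies the sister chromatid, or by end joining, which seals the ends directly. Fanconi proteins unhook crosslinks between strands at stalled forks, mismatch repair corrects copying errors, and excision repair replaces damaged or wrong bases. The kinases Atm and Atr detect breaks and stalled forks and act through Chek2 and Chek1 to hold the cell cycle. Mouse embryonic stem cells spend much of their cycle in S phase and are known to depend heavily on homologous recombination.

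Levels are log2 processed intensities relative to the 75th percentile of their own array, and a difference is the level on the shLincU array minus that on the shCtrl array, averaged over the probes of a gene that were well above background on both arrays. Of the 80 probes, 69 met that limit, and all 32 genes kept at least 1 probe, 12 of them just 1. In all, 21042 genes were measured. The share of all probes above that limit was 60.9% for shCtrl and 57.9% for shLincU, with 75th percentiles of 626 and 420 intensity units and no saturated probe. The median SD between the probes of a gene was 0.178 over 7132 genes, and the error that the scanner software gives a gene's difference, mostly preset in the software, was 0.097 to 0.23 for the 32 genes. Scaled to the E1A spike-in controls instead, the median of all genes moved by -0.89 and all 32 genes were lower on the shLincU array. Every direction given here is thus one relative to most other genes.

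The repair and checkpoint genes as a list lay near the control. Of the 32 genes, 15 were higher and 17 lower on the shLincU array, with a median difference of -0.0047 and a range from -0.37 for Fancb to 0.50 for Fanca. The median over all measured genes was 0.020, and the 5th to 95th percentile of all genes ran from -0.58 to 0.57. None of the 32 genes was 1.5-fold higher (a log2 difference of 0.58), against 4.78% of all measured genes, and none was 1.5-fold lower, against 4.85%, or 9.62% in either direction. At 2-fold the counts were also 0, against 1.15% higher, 1.54% lower and 2.69% in either direction among all genes. All 32 genes differed by no more than 0.5 and 25 by no more than 0.25, where 86.6% and 61.9% of all genes did. Several probes were averaged for 20 of the 32 genes, against 7132 of the 21042 measured genes. The shares were not matched for this or for signal level. The counts of 0 are therefore not read as a result about these genes. In bulk RNA, fewer cells of a type and less RNA per cell cannot be told apart.

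Measured against the typical SD between probes of a gene, 0.178, 19 of the 32 genes lay within it, where 47.7% of all measured genes did. That share, too, was not matched for the number of probes averaged or for signal level. The other 13 genes lay beyond it, 7 higher and 6 lower. The higher genes were Fanca, Xrcc1, Xrcc4, Fancd2, Brca1, Rad51b and Fancc. The lower genes were Fancb, Atm, Parp1, Exo1, Palb2 and Fancg. These 13 genes come from 5 of the 6 groups, all but mismatch repair, and each of those 5 groups other than end joining and the checkpoint holds genes on both sides.

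**Figure D1:**
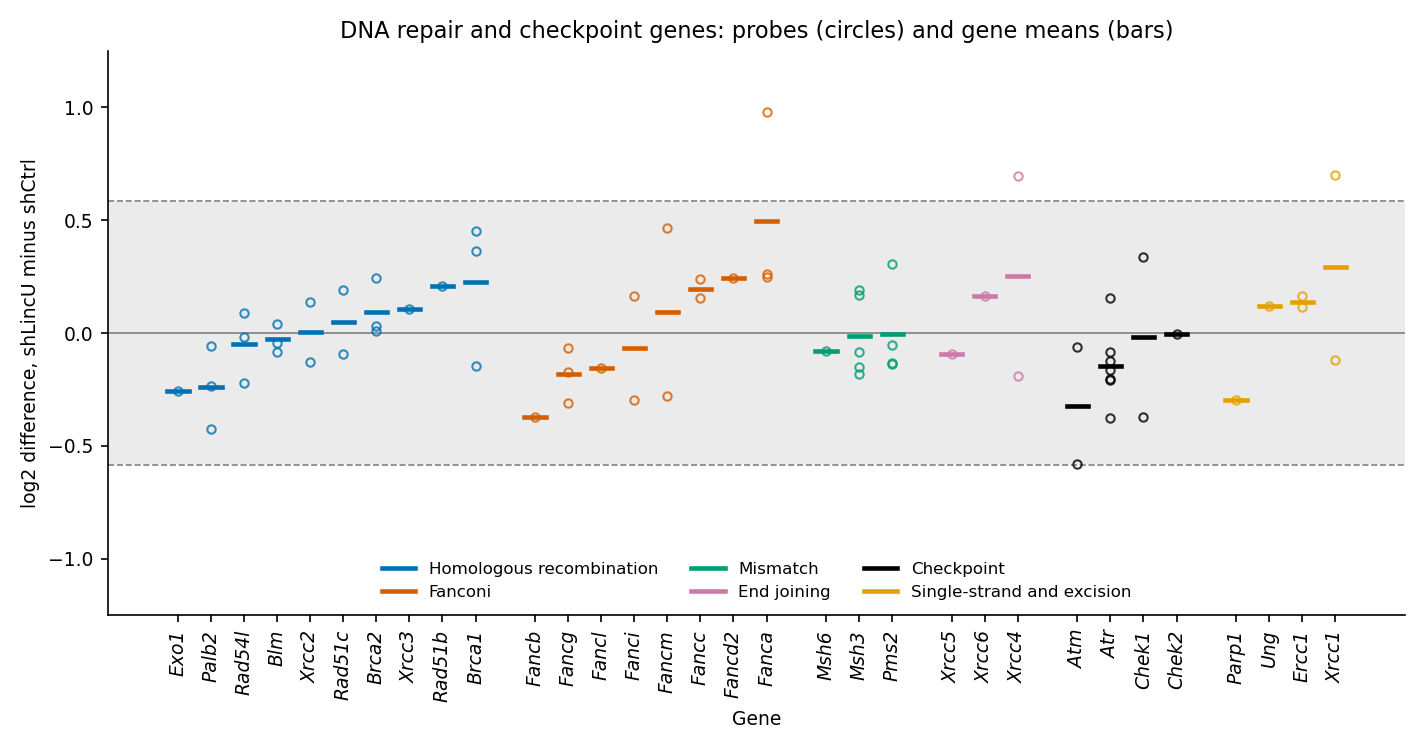
Log2 difference between the shLincU and the shCtrl array for the 32 genes on the y axis, ordered within 6 repair groups along the x axis. Circles are the 69 single probes and bars are gene means. The grey band is the 5th to 95th percentile of all measured genes (-0.58 to 0.57), and dashed lines mark 1.5-fold. No gene mean leaves the band. Above it and the upper dashed line lie 3 single probes, of Fanca, Xrcc1 and Xrcc4. A probe of Atm, at -0.58, lies just below the band but within 1.5-fold.

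Homologous recombination genes were divided between the directions, 6 higher and 4 lower (Xrcc2, at 0.0025, was lower with arrays centred on the median), with a median of 0.026 and a range from -0.26 to 0.22. Brca1, which recruits the recombination machinery to breaks, had levels of -0.018 in shCtrl and 0.21 in shLincU, a difference of 0.22. Its 3 probes ran from -0.14 to 0.45, so the gene mean is smaller than the SD between its probes, 0.32. The probe at -0.14 was the brightest, at levels of 3.29 and 3.14, and the others were higher on the shLincU array. Palb2, the bridge between Brca1 and Brca2, lay on the other side, with levels of -0.93 and -1.17 and a difference of -0.24. All 3 Palb2 probes were lower on the shLincU array, at -0.42, -0.23 and -0.058. Brca2, which acts on the single-stranded DNA of a trimmed break, had levels of 1.70 and 1.80 and a difference of 0.095, with its 3 probes between 0.010 and 0.24. By gene means the partners of this chain thus lay on both sides of the control. With the brightest probe Brca1 was at -0.14, on the side of Palb2, and Brca2 at 0.030.

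Rad51b, Rad51c, Xrcc2 and Xrcc3 are related proteins that assist strand exchange. Rad51b differed by 0.21 on its 1 measured probe (levels -1.39 and -1.18), Xrcc3 by 0.11 on 1 probe (0.82 and 0.93), Rad51c by 0.049 on 2 probes and Xrcc2 by 0.0025 on 2 probes. The SD between probes was 0.20 for Rad51c and 0.19 for Xrcc2, and with 1 measured probe Rad51b and Xrcc3 have no such spread. Rad54l, a motor protein that drives strand exchange, stood at 0.10 and 0.051, a difference of -0.050. Blm, a helicase that dissolves joined intermediates, stood at 1.70 and 1.67, a difference of -0.028, and its 3 probes spanned 0.12. Exo1, a nuclease that trims the 5′ strand of a break and also works in mismatch repair, was the lowest of the 10, with levels of 4.41 and 4.15 and a difference of -0.26 on its 1 probe. Relative to the median of all genes, Exo1 lay between -0.40 and -0.26 in the 14 of 15 other settings that measured it. All of these settings read the same probe, so the narrow range is no check on it.

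Fanconi genes showed the widest spread of the 6 groups, from -0.37 to 0.50, with 4 genes higher, 4 lower and a median of 0.013. Fanca, a scaffold of the core complex, had levels of -1.03 and -0.54 and the highest difference of the list, 0.50, or 1.41-fold. That mean is carried by 1 dim probe: the probe nearest the 5′ end read 38.6 intensity units in shCtrl and 51.0 in shLincU, a scaled difference of 0.98, while the other 2 measured probes read 0.25 and 0.26. The median over the 3 probes was 0.26. Fancb, a core subunit that works with Fancl, was the lowest gene of the list, with levels of 1.79 and 1.42 and a difference of -0.37 on its 1 probe, or 1.29-fold lower. Fancl, the ubiquitin ligase of the core complex, stood at 3.18 and 3.03, a difference of -0.15 on 1 probe.

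Fancg, which binds Fanca, lay on the other side. Its difference was -0.18, and all 3 of its probes were lower on the shLincU array, from -0.31 to -0.066. Fancc was higher by 0.20, with 0.16 and 0.24 on its 2 probes. The core complex was thus represented by 2 genes above and 3 below the control. The substrates of the ligase are Fancd2 and Fanci, which form a clamp on DNA once modified. Fancd2 differed by 0.24 on 1 probe (-0.28 and -0.035), and Fanci by -0.066, a value that was positive after normexp, with its 2 probes at 0.16 and -0.29. The Fanci probe at -0.29 targets the RefSeq mRNA, at levels of 3.20 and 2.90. The probe at 0.16 targets another transcript and was dim, at -4.24 and -4.08. With the brightest probe, or with RefSeq mRNA probes alone, Fanci was thus at -0.29. Fancm, the motor protein that brings the complex to stalled forks, differed by 0.092, but its 2 probes stood at 0.46 and -0.28, an SD of 0.52.

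The 3 mismatch repair genes had a median of -0.011 and a range from -0.080 to -0.0041. Msh6, which finds mispaired bases, had levels of 6.79 and 6.71 and a difference of -0.080. Msh3, which finds larger loops, stood at -0.56 and -0.57, a difference of -0.011 over 5 probes that ran from -0.18 to 0.19. Pms2, a nuclease that nicks the strand to be corrected, differed by -0.0041 over the 4 of its 9 probes that were measured, with single probes from -0.14 to 0.31. All 3 genes were on the lower side by these means, but Msh3 and Pms2 were higher after normexp background correction.

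In end joining, Ku is the ring of Xrcc5 and Xrcc6 that threads onto broken ends. Xrcc5 stood at 4.12 and 4.03, a difference of -0.093, and Xrcc6 at 4.74 and 4.90, a difference of 0.16, each on 1 probe. Xrcc4, the scaffold of the ligase Lig4, had the highest mean of the group, 0.25, from probes at -0.19 and 0.70. The probe at 0.70 targets a cDNA clone, with levels of -3.82 in shCtrl and -3.12 in shLincU, and the probe at -0.19 targets the RefSeq mRNA. With the RefSeq mRNA probe alone, Xrcc4 was at -0.19, and the median of the 3 genes was -0.093 in place of 0.16. Lig4 itself differed by -0.19, and Prkdc, the kinase that Ku recruits, by 0.054.

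All 4 checkpoint genes were on the lower side, with a median of -0.080, but Atr was higher after normexp, Chek2 after normexp and cyclic loess, and Chek1 after cyclic loess, after quantile normalization and in the deposited value table. Atm, the kinase that responds to breaks, had the widest difference, with levels of -0.24 and -0.56, a mean of -0.32 and single probes at -0.58 and -0.062. Atr, the kinase that responds to single-stranded DNA at stalled forks, stood at -1.52 and -1.66. Of its 7 measured probes 6 were lower, from -0.38 to -0.085, and 1 was higher at 0.15, with a mean of -0.14 and an SD of 0.16. The Atr probe of the RefSeq mRNA was far brighter, at 2.85 and 2.69, a difference of -0.16. The others target other transcripts. Chek2, the kinase downstream of Atm, stood at -0.036 and -0.042, a difference of -0.0054 on 1 probe. Chek1, the kinase downstream of Atr, had the mean -0.016, which is the average of 0.34 and -0.37. Both spots of Chek1 lay beside other spots that differed at least 2-fold between the arrays in the same direction, and no other gene of the list rests on such spots alone.

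The 4 genes of single-strand break and excision repair had a median of 0.13, but -0.0019 with the brightest probe of each gene and 0.00029 with RefSeq mRNA probes alone. Parp1, which senses nicks, had levels of 3.59 and 3.29 and a difference of -0.30 on 1 probe. Xrcc1, the scaffold that Parp1 brings to a nick, differed by 0.29 as a mean, but its RefSeq mRNA probe read -0.12 (4.55 and 4.43) and its other probe, against a cDNA clone at a level of -3.88 on the shCtrl array, read 0.70. Ercc1, a subunit of the nuclease that cuts beside bulky lesions, was at 2.19 and 2.33, and its 2 probes gave 0.12 and 0.16. Ung, which removes uracil from DNA, was at 6.11 and 6.23, a difference of 0.12 on 1 probe. The SD between the probes was 0.034 for Ercc1 and 0.58 for Xrcc1, the genes of this group with more than 1 measured probe.

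Across the list, the widest probe differences belonged to dim probes. The 3 probes at least 1.5-fold higher, those of Fanca, Xrcc1 and Xrcc4 named above, all had mean levels below -2, and no probe was 1.5-fold lower. They were 3 of 16 member probes in that band, 18.75%, where 18.1% of the 9877 other probes there were past 1.5-fold in either direction. Between -2 and 0, none of 23 member probes was past 1.5-fold, against 11.0% of other probes, and at 0 or above none of 30, against 3.98%. The share among dim probes is near the background, so it is not a result about these genes.

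**Figure D2:**
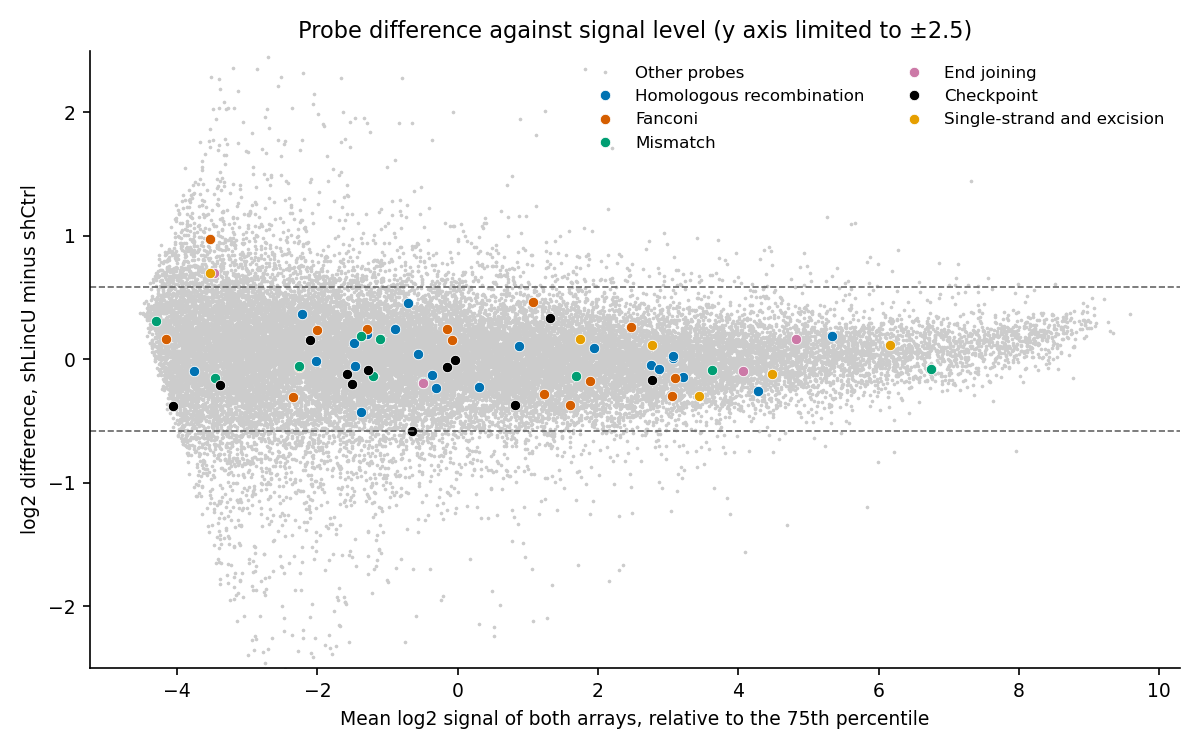
Difference between the arrays (y axis, log2, shown to 2.5 on either side) against the mean level of both arrays (x axis, log2 relative to the 75th percentile) for single probes, grey for other genes and coloured by repair group for the 69 member probes. The grey cloud is wide on the left, where the 3 member probes past 1.5-fold lie, and narrow on the right.

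Of the 20 genes with several measured probes, 4 had every probe higher (Brca2, Fanca, Fancc and Ercc1), 3 had every probe lower (Palb2, Fancg and Atm), and 13 had probes on both sides. Genes with probes all on 1 side were 35% of these 20, against 52.9% of the 7132 genes with several probes. These shares were not matched for the number of probes per gene, which reached 7 in Atr. Probe differences were also compared by the place of the probe in the transcript, which was not separated from signal level. For 13 genes the outermost RefSeq mRNA probes lay at least 1000 bases apart on the genome, and in 10 of them the difference was more positive at the probe nearer the 5′ end. To show what was measured at the 5′ end, the 5′ probes of 6 of these genes are given, all in exons of the RefSeq mRNA, with the next probe along for Fanca. They are genes with a contrast of 0.23 or more and a positive difference at the 5′ probe; the 3′ probes, and both probes of Atm, are not shown. They are printed 5′ to 3′ on the strand of the gene, in lower case and without capitals, because no single base is compared.
Brca1 5′ probe: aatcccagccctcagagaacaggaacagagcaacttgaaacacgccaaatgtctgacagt
Brca2 5′ probe: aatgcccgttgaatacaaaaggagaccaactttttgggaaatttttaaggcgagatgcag
Chek1 5′ probe: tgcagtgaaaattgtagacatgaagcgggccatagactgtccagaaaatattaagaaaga
Fanca 5′ probe: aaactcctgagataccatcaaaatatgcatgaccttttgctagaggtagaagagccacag
Fanca middle probe: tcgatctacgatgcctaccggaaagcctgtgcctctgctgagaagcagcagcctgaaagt
Fancm 5′ probe: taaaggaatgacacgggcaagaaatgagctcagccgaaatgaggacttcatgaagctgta
Msh3 5′ probe: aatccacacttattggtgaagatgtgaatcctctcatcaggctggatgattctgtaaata

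In build mm9, as the array gives it, the Brca1 probe lies at chr11:101386419-101386478 on the minus strand and starts at base 2348 of its mRNA. The Brca2 probe is at chr5:151325787-151325846 on the plus strand (base 313) and the Chek1 probe at chr9:36531507-36531566 on the minus strand (base 217). The Fanca probes span introns on the minus strand of chromosome 8, from 125840342 to 125842006 (base 167) and from 125813811 to 125815354 (base 1856). The Fancm probe spans an intron at chr12:66193471-66194694 on the plus strand (base 1242), and the Msh3 probe at chr13:93115018-93116708 on the minus strand (base 983). A probe that spans an intron reads spliced RNA. The 75 probes of the 29 genes with a known strand in the RefSeq table all lay on the strand of their gene.

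Fancm had the widest contrast, 0.74: its 5′ probe went from 0.84 to 1.30 and its 3′ probe from 1.37 to 1.09. For Fanca the contrast was 0.72, with 0.98 at the 5′ probe and 0.26 at the 3′ probe. In Chek1 the 5′ probe went from 1.14 to 1.48 a difference of 0.34, against -0.37 at the 3′ probe and thus a contrast of 0.71. These 3 genes thus differed at their ends by more than any of the 32 gene means. Brca1 followed at 0.60, with 0.45 at the 5′ and -0.14 at the 3′ probe, and Atm at 0.52, with -0.062 and -0.58. Msh3 stood at 0.25, Brca2 at 0.23, Fancg at 0.11 and Ercc1 at 0.049. Pms2 was even at 0.0068, and Blm, Fancc and Palb2 leaned the other way at -0.038, -0.081 and -0.19.

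Over the 13 genes the median contrast was 0.23 and 5 genes were at 0.5 or more. The same lean was present across the array: of 4008 other genes with such a pair, 67.6% had the more positive difference at the 5′ probe, with a median of 0.15, and 15.9% were at 0.5 or more. The 76.9% of the repair genes with the more positive 5′ probe is near that background, and is no result about them. The 5 repair genes at 0.5 or more are 38.5% of the 13, above the 15.9%, but they are few and this was not tested. With a probe below the 75th percentile, the median was 0.20 over 2839 pairs of other genes and 0.23 over 9 repair genes. Where both probes stood at or above the 75th percentile, the median of other genes was 0.027 over 1169 pairs. There the 4 repair genes (Blm, Chek1, Ercc1 and Fancm) had a median of 0.38. Of those 4, Fancm and Chek1 carry the contrast, and the spots of Chek1 lay beside discordant spots. RNA quality was not measured in the files used here, and its part in the contrast was not tested.

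**Figure D3:**
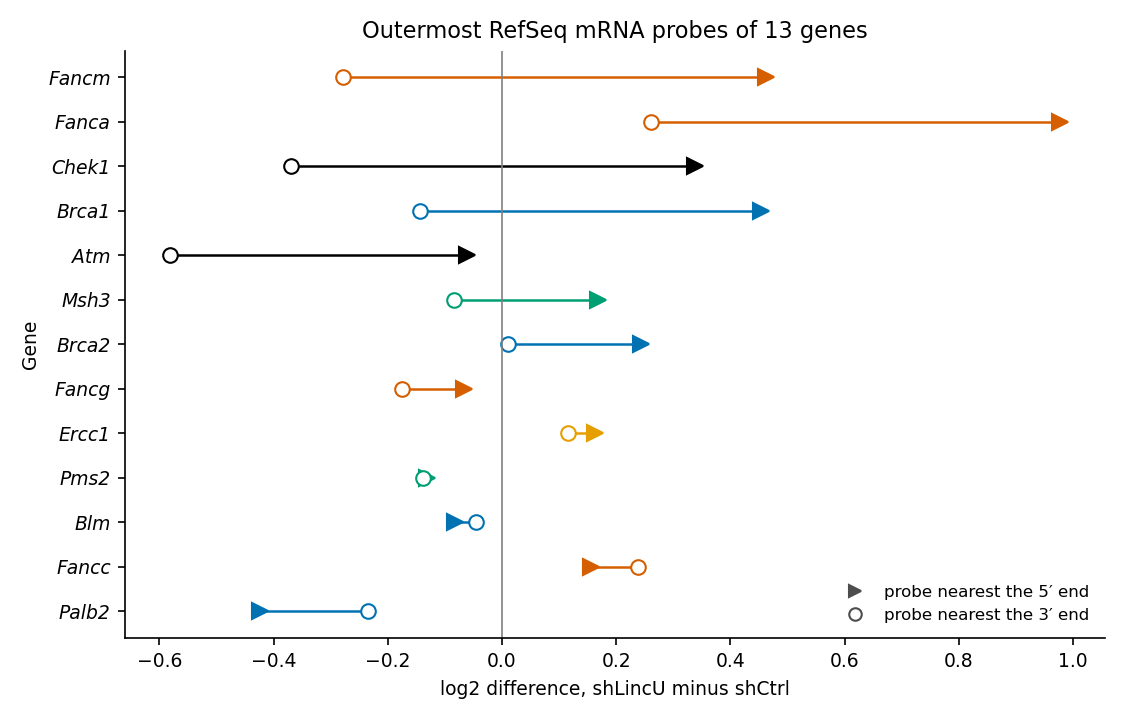
Log2 difference between the arrays (x axis) at the outermost RefSeq mRNA probes of 13 genes (y axis), triangles for the probe nearest the 5′ end and open circles for the probe nearest the 3′ end. In 10 genes the triangle lies right of the circle, by 0.74 in Fancm at the top, and in Palb2 at the bottom it lies left by 0.19.

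Promoter sequences of these genes were searched for words that the list did not use, as a description with no test and no background matched on GC content. RefSeq promoter windows, 250 bases before to 50 after a gene's start in GRCm38.p6, were found for 29 of the 32 genes, 32 windows in all; Exo1, Fancd2 and Xrcc2 had none in the table. Words bound by E2F factors, which switch on replication and repair genes at the entry to S phase, were searched on both strands as TTTCCCGC, TTTGGCGC, TTTCGCGC and TTTGCCGC. They were present in 8 of the 32 windows, 25%, of 7 genes, and in 2.26% of all 32851 windows. Below are 5 of these windows, chosen because the word and the bases around it lie before the gene's start; each is shown over 60 bases with the words in capitals. The capitals in Msh3 are 2 overlapping words, TTTGGCGC and, on the other strand, TTTCGCGC.
Brca2: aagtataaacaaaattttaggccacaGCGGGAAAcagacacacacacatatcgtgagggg
Chek2: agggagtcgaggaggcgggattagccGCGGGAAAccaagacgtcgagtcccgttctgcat
Fancg: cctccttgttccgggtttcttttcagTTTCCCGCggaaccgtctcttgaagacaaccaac
Msh3: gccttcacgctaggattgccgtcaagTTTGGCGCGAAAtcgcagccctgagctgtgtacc
Xrcc6: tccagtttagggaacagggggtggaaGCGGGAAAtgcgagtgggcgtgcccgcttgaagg

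In GRCm38.p6 these lie at chr5:150522427-150522486 for Brca2, chr5:110839805-110839864 for Chek2 and chr15:82016297-82016356 for Xrcc6, all on the plus strand. Fancg is at chr4:43010320-43010379 and Msh3 at chr13:92355172-92355231, both on the minus strand. The other genes with a word were Msh6 and Rad51c. The 7 genes had differences from -0.18 to 0.16 with a median of -0.0054, and the 22 genes without a word had a median of -0.010, so the difference between the arrays did not separate by this word. Among other words, CCAAT was in 59.4% of the windows against 37.4% of all, the GC box GGGCGG in 65.6% against 35.7%, TGACGTCA in 6.25% against 1.79% and TTTGAA in 3.13% against 17.9%. The windows had a median GC content of 59%, against 52.7% for all, and these words differ in their own GC content. A C followed by a G occurred a median of 20.5 times per window, against 7 for all. Every E2F word searched holds such a pair, and the shares were not matched for it. A match is a description of letters and not of binding.

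Other genes of the same pathways were listed by role, 139 in all, and 137 were measured. Of these, 70 were higher and 67 lower, with a median of 0.0018. At least 1.5-fold higher were 3 genes, and 1 was 1.5-fold lower. By group the medians were 0.0042 in homologous recombination (34 genes), -0.084 in the Fanconi pathway (21), -0.15 in mismatch repair (9), -0.030 in end joining (14), -0.014 in the checkpoint (25) and 0.050 in single-strand break and excision repair (34). In total the wider list thus repeats the even division seen in the 32 genes. Single groups were less even, with 22 higher and 12 lower in single-strand break and excision repair. Mismatch repair had 3 and 6, and end joining 5 and 9. The group medians were not those of the 32 genes, as in end joining, at -0.030 against 0.16. The counts of 3 and 1 among 137 are below the 4.78% and 4.85% of all genes, but were not matched for signal level. Among other probes, the share past 1.5-fold in either direction fell from 18.1% at levels below -2 to 3.98% at 0 or above. The lower counts are therefore not read as a result about these genes.

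Fan1, a nuclease that cuts at crosslinks, was the 1 gene past 2-fold, with levels of -3.06 and -1.75 and a difference of 1.31 on 1 dim probe, and it was under 2-fold after normexp. Aptx, which clears abortive ligation products, was at 0.42 and 1.29, a difference of 0.87 on 1 probe. Faap24, a partner of Fancm listed on the array as C230052I12Rik, was at 1.22 and 1.86, a difference of 0.64 from probes at 0.37 and 0.92. These 3 were the genes 1.5-fold higher. Ercc6, which helps repair transcribed strands, was the gene 1.5-fold lower, at -0.65 on 1 probe, and is named after its value was seen.

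Among genes at or above the median signal, the widest differences in recombination were Smc5, a part of a ring complex that holds chromosomes, at 0.51, and Rpa3, a subunit of the protein that coats single-stranded DNA, at -0.44. In the Fanconi group Stra13, a DNA-binding partner of Fancm, was at -0.39. Mismatch repair ran from Rfc1, the loader of the sliding clamp, at -0.38 to Mlh3, a relative of Pms2, at 0.29, and the clamp Pcna was at -0.23. End joining ran from Lig4 at -0.19 to Trp53bp1, which protects ends from trimming, at 0.28. In the checkpoint, Etaa1, an activator of Atr, was at -0.52, and Tlk1, a chromatin kinase that the checkpoint restrains, at 0.33. Ercc3, a helicase of nucleotide excision repair, was at -0.22. Trp53, the p53 gene, and Cdc25a, the phosphatase that Chek1 targets, were at -0.025 and 0.058, both within the typical spread between probes.

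**Figure D4:**
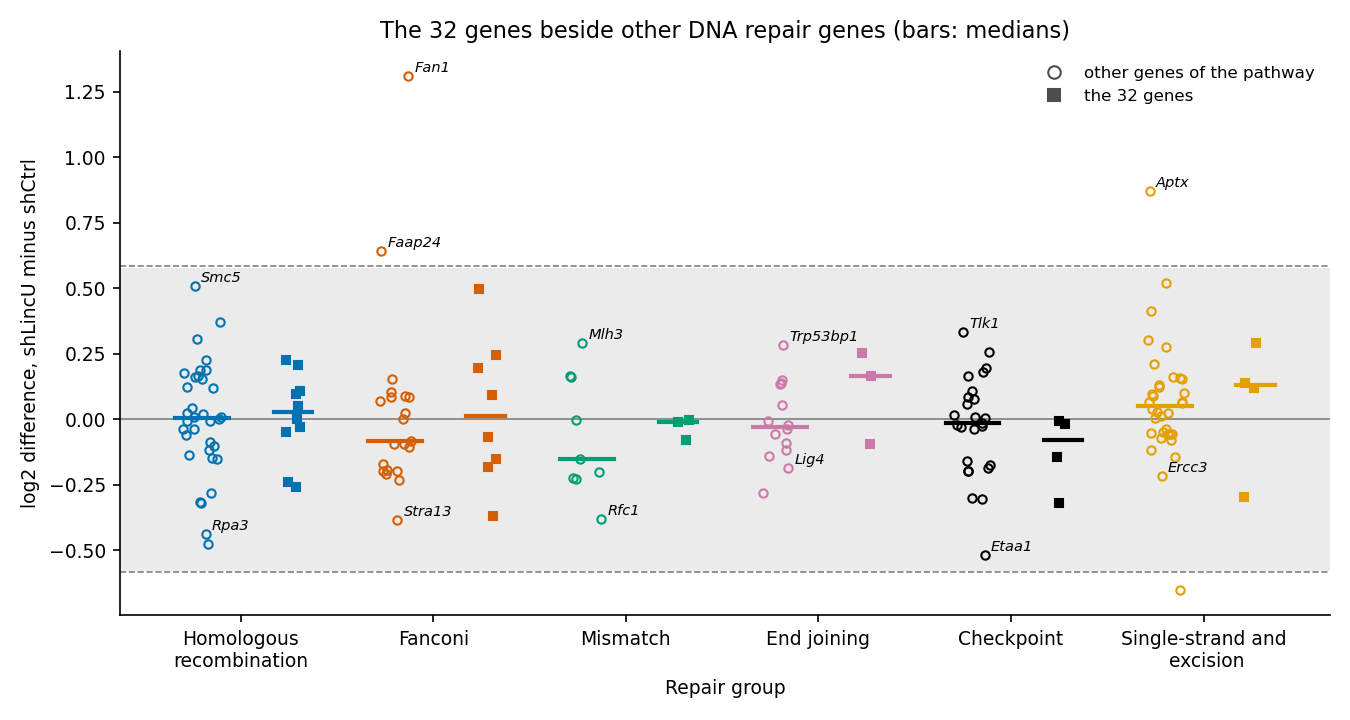
Log2 difference between the arrays (y axis) by repair group (x axis) for 137 other genes of the pathways (open circles) and the 32 genes (squares), with bars for medians. The grey band is the 5th to 95th percentile of all measured genes, and dashed lines mark 1.5-fold. The medians of both sets stay between -0.15 and 0.16, and the labelled Fan1, Aptx and Faap24 lie above the band.

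The lists that bear on proliferation and cell identity were set beside the repair genes. Of 20 proliferation genes 11 were higher and 9 lower, with a median of 0.026 and a range from -0.23 for Pcna to 0.62 for Ccne2, a dim S-phase cyclin. Of 20 targets of p53, 11 were higher and 9 lower, with a median of 0.025. Ccng1 at -0.87 and Ei24 at -0.65 were the 2 past 1.5-fold, and Cdkn1a, the cell cycle inhibitor that p53 induces, was at 0.37. All 10 embryonic stem cell markers were measured and ran from -0.13 to 0.34 with a median of 0.038, at levels up to 9.19 on the shCtrl array.

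Markers of fibroblast feeder cells differed far more than the repair genes. Of 15 such markers 13 were measured on both arrays, and Lum and Fap were well above background on the shLincU array alone. Of the 13, 8 were lower and 5 higher, from -2.41 for Dcn, a matrix proteoglycan, to 0.88 for Tagln, a contractile protein, with a median of -0.91. Of the 13, 7 were at least 1.5-fold lower and 2 at least 1.5-fold higher, against 4.85% and 4.78% of all genes. At 2-fold 5 were lower and 0 higher, against 1.54% and 1.15%. Those 5 were Dcn, Ccl2 (-2.24), Lox (-2.15), S100a4 (-1.88) and Col1a2 (-1.20). The summed level of the 13 on the log2 scale was 5.13 in shCtrl and 5.35 in shLincU. Single markers ran from -2.84 to 4.03 and from -3.69 to 4.91. Tagln, at 4.03 and 4.91, was the brightest marker on each array and weighs most in the sum. Of the collagens on this list, Col1a1 was at 0.040 and 0.49 and Col1a2 at 0.58 and -0.62. Col3a1 was at -2.39 and -1.75, and Col6a1 at -2.84 and -3.36. The part of the feeder markers in the values of the repair genes was not tested.

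**Figure D5:**
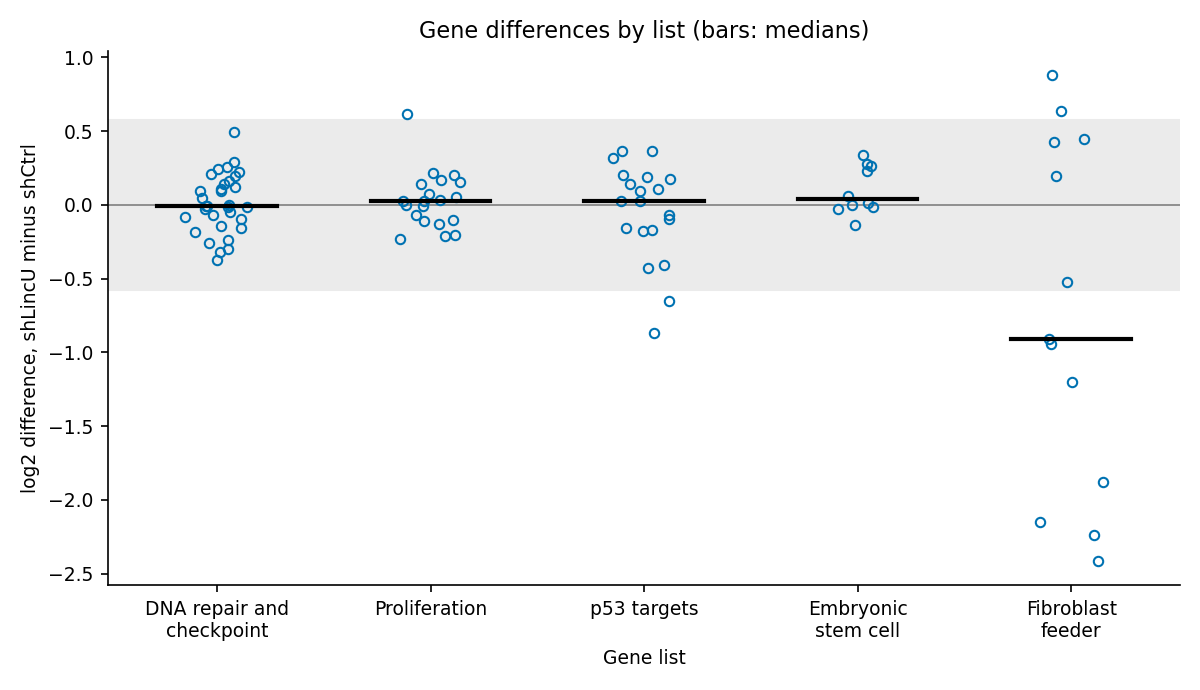
Log2 difference between the arrays (y axis) for the genes of 5 lists (x axis), each circle 1 gene, each bar the list's median. The grey band is the 5th to 95th percentile of all measured genes. The repair list and the proliferation list stay near 0, with medians of -0.0047 and 0.026, while the 13 measured fibroblast feeder markers run from -2.41 to 0.88.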

How the data were processed

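Total RNA of 2 samples was labelled with Cy3 and hybridised to 1-colour Agilent arrays. The deposited scanner files hold an intensity per spot, made with Agilent Feature Extraction (per the submitters' processing notes, version 10.7.1.1) and corrected within each array by spatial detrending and for a multiplicative trend, per the file headers. Other columns that the authors deposited are flags of 0 or 1 (well above background, positive and significant, saturated, outlier). The deposited value table holds log2 values whose quantiles are equal between the arrays (median 5.65 in either). Regressed on the scanner values over 31898 probes, its slope was 1.002 for shCtrl and 0.9998 for shLincU, so scale and direction are known; how it was centred is not.

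Computed here were log2 intensities, scaled by subtracting each array's 75th percentile of non-control probes. Outlier spots were left out. The value of a gene is the mean of those of its probes that exceeded background, by the flag, in shCtrl and also in shLincU. Genes were grouped by the array's gene name column. Since either group is 1 array, differences were not tested and have no p-value. Spots called beside discordant spots had at least 2 of 14 neighbours, within 2 rows and 1 column, differing 2-fold in 1 direction. Among 182 probes spotted 10 times, the median SD of the difference between spots was 0.041.

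The members, the lists and several alternatives were chosen with earlier results of these data known. Every member is named; of the wider list, the gene with the largest difference in each direction per group at or above the median signal, each gene past 2-fold, and fixed partners of members (Lig4, Prkdc, Trp53, Cdc25a and Pcna; others of these are not reported here). The contrast between probe ends and the restriction to RefSeq mRNA probes were added after seeing the data. Other settings were normexp (offset 50), quantile, cyclic loess, median and E1A scaling, the deposited table, other background filters, the brightest or median probe, outlier spots kept, spots beside discordant spots left out, and upper or lower array rows. The calculation was tested on simulated data. Software: R 4.3.3 with limma 3.58.1, and Python 3.11.15 with pandas 2.3.3, numpy 2.4.6 and matplotlib 3.10.9. Promoters are from RefSeq, GRCm38.p6.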

Additional observations from a re-analysis of the deposited data

How the results depend on the processing

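No paired analysis was possible because there is a lone array for shCtrl and a lone array for shLincU, which also leaves no replicate to omit. Of the medians and counts over 15 other settings, 219 stayed within the typical probe SD (or, for counts, within 1.5 times), and 34 did not. Medians changed sign in 25 of 124 cases, and 5 more did so with E1A; the Fanconi median was -0.16 with the brightest probe. Over scalings other than E1A, 25 of the 32 genes kept their sign; the exceptions were Fanci, Msh3, Pms2, Xrcc2, Atr, Chek1 and Chek2. Relative to the median of all genes, 18 kept it in every setting that measured them, 5 of these 18 being measured in all 15 and the others in 14. E1A and median scaling shift all genes alike, so they could not change this sign. For the 12 genes with 1 measured probe, settings that choose among measured probes return the same probe. A sign kept in such settings is therefore no check on it. Removing the background filter moved the median of all genes by 0.12; 11 of the 80 probes did not exceed background on both arrays.

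With 8 E1A controls the medians were -0.90 (all 32 genes), -0.87 (recombination), -0.88 (Fanconi), -0.90 (mismatch), -0.73 (end joining), -0.97 (checkpoint), -0.76 (single-strand and excision) and -0.89 (wider list); 31 of the 32 genes were then 1.5-fold lower and 8 were 2-fold lower, and of the wider list 0 were 1.5-fold higher, 129 1.5-fold lower, 0 2-fold higher and 37 2-fold lower. The median of all genes was -0.87 with E1A, so these counts are no result about the repair genes. The share of all genes past each size is given for the main setting alone. Counts under the other settings, here and below, thus have no background share beside them. After normexp, 0 genes of the wider list were 1.5-fold lower and 0 were 2-fold higher. Without the background filter 1 of the 32 genes, Fanca at 0.60, was 1.5-fold higher, and of the wider list 0 were 1.5-fold lower and 0 were 2-fold higher. With the positive-and-significant flag Fanca was again the 1 gene, and of the wider list 0 were 2-fold higher and 1 was 2-fold lower. With the brightest probe, or with RefSeq mRNA probes alone, the end joining median was -0.093; the latter gave 2 genes of the wider list 1.5-fold lower.

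In the upper rows of the array 1 of 23 genes was 1.5-fold higher, and of the wider list 1 was 1.5-fold higher, 0 were 1.5-fold lower and 0 were 2-fold higher. In the lower rows the Fanconi median was 0.25 over 4 genes, 1 of 21 genes was 1.5-fold higher, 2 of the wider list were 1.5-fold lower and 1 was 2-fold lower, and the median contrast between 5′ and 3′ probes was 0.049 over 5 genes. The upper-row gene was Fanca at 0.61 and the lower-row gene Xrcc4 at 0.70. The cause of these shifts was not tested, apart from what the settings do by construction: E1A moves every gene alike, and rows and filters change which probes are used.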
